A study of Sus scrofa with 6 samples.

Results

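The genes of the nuclear pore complex were followed from porcine embryonic fibroblasts (PEFs) to the induced pluripotent stem cells (piPSCs) made from them. Members were the genes of the expression table whose symbol is NUP with a number, together with TPR, RANBP2, SEC13, RAE1, AAAS, NDC1 and NUPL2. This rule found 26 of the 18007 genes in the table. SEH1L and POM121 were in the rule as well but had no entry under those symbols, and NUPL2 is the older symbol of NUP42.

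The PEFs were grown from the ear tips of embryonic day 90 embryos of a Longwhite boar and a Meishan sow, and 3 lines (PEF5, PEF7 and PEF8) were used. Longwhite is the spelling of the labels, and the study's paper names the breed Large White. Each line was infected with lentiviruses that carry Oct4, Sox2, Klf4 and c-Myc under a doxycycline-controlled promoter and the transactivator M2rtTA, and colonies were picked onto mouse fibroblast feeders to give piPSC5, piPSC7 and piPSC8. Poly-A RNA of each line was sequenced as 1 library, so each group has 3 libraries and no line has a replicate, and p-values measure the spread between the 3 lines. Levels are FPKM, in which fragments are divided by gene length and by the size of the library, and the libraries held between 11010629 and 17836510 fragments. This division does not make libraries fully comparable. The FPKM sums were 337074, 348236 and 348943 in PEF5, PEF7 and PEF8 and 420498, 437853 and 435678 in piPSC5, piPSC7 and piPSC8. Results with rescaled libraries are therefore given as well.

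All 10 fibroblast markers of a fixed list, among them COL1A1, COL1A2 and LUM, fell in the piPSCs. Of 13 pluripotency markers, 9 had an entry and only SOX2 and LIN28B had a mean FPKM of at least 0.5 over the 6 libraries. SOX2 had FPKM values of 3.01, 2.49 and 0.129 in piPSC5, piPSC7 and piPSC8, and LIN28B had 2.51, 0.281 and 8.90. In all piPSC libraries, the endogenous NANOG, SALL4, ESRRB, ZFP42, EPCAM, DPPA2 and CDH1 were at or near 0, so the piPSC label rests here on the loss of fibroblast genes and on the study's own description. The summed FPKM of each list of keratinocyte, chondrocyte, endothelial, blood cell and skeletal muscle markers was at most 14.2 in a library, and this was the muscle gene DES in piPSC7; their part in the results was not tested. PEF5 stood apart from the other fibroblast libraries in a list of 12 tested proliferation genes, whose median log2(FPKM + 1) was 3.34 in PEF5, 1.29 in PEF7 and 2.07 in PEF8. In the piPSCs 11 of these 12 genes rose and 0 fell, against 30.3% and 21.5% of all genes tested, with a median log2 fold change of 2.62. The lines are described as male, and the Y-linked DDX3Y had FPKM values of 25.3 in PEF8 and 42.5 in piPSC8 and 0 in the libraries of lines 5 and 7.

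The nuclear pore complex is the large channel that spans the nuclear envelope and through which RNA, ribosomal subunits and proteins pass between nucleus and cytoplasm. Its scaffold is built from an outer ring of Y-shaped complexes and an inner ring, which are anchored in the membrane by a few transmembrane nucleoporins, and its central channel is lined by nucleoporins with phenylalanine-glycine repeats that bind transport receptors. Filaments on the cytoplasmic face and a basket on the nuclear face serve as docking sites, and several nucleoporins also act at kinetochores in mitosis or bind chromatin.

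Nearly all measured nucleoporin genes were higher in the piPSCs. The comparison was made with limma on log2(FPKM + 1), after genes whose mean FPKM was under 0.5 had been left out, and p-values were adjusted over the 12428 genes that stayed. Of the 25 members tested, 22 rose, 1 (SEC13) fell, and NUPL2 and TPR did not pass an adjusted p of 0.05. Among all genes tested, 30.3% were higher and 21.5% lower by the same test. A rise of at least 2-fold was called for 16 members and a fall of that size for 0, against 20.2% and 16.7% of all genes. At an unadjusted p under 0.05, a fall of at least 2-fold was likewise seen for 0 members, and limma's voom on recovered fragments also called 0. Without PEF5, 18 members rose and 1 fell. Of all 12428 genes, 3170 were then higher and 2157 lower, against 3763 and 2667 with PEF5. The median log2 fold change of the 25 members was 1.44, and that of all genes tested was 0.20. NUP210 passed the filter on low values only through the piPSCs, and without it 21 of 24 members rose, 15 of them at least 2-fold, with a median of 1.42. As these are bulk libraries, more cells that express a gene and more of its RNA per cell cannot be told apart. The same holds for fewer cells and less RNA per cell where a gene fell.

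The scaling of the libraries touched the size of these changes but not their direction. When every library was rescaled to the median ratio over genes, the median of all genes moved from 0.20 to -0.01 and that of the members to 1.20. The called genes then split into 1879 higher and 2511 lower, in place of 2505 higher and 2070 lower. At an adjusted p under 0.05 alone, without the 2-fold limit, 18 members then rose and 1 fell. Of all 12428 genes tested, 2830 were then higher and 3250 lower. With FPKM rescaled to equal sums, 15 members rose and 1 fell, beside 2627 higher and 3383 lower of all 12428 genes. The members that lost their call under both rescalings were RAE1, RANBP2, NUP88 and NUP50, and with equal sums also NUP214, NUP98 and NUP93.

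**Figure D1:**
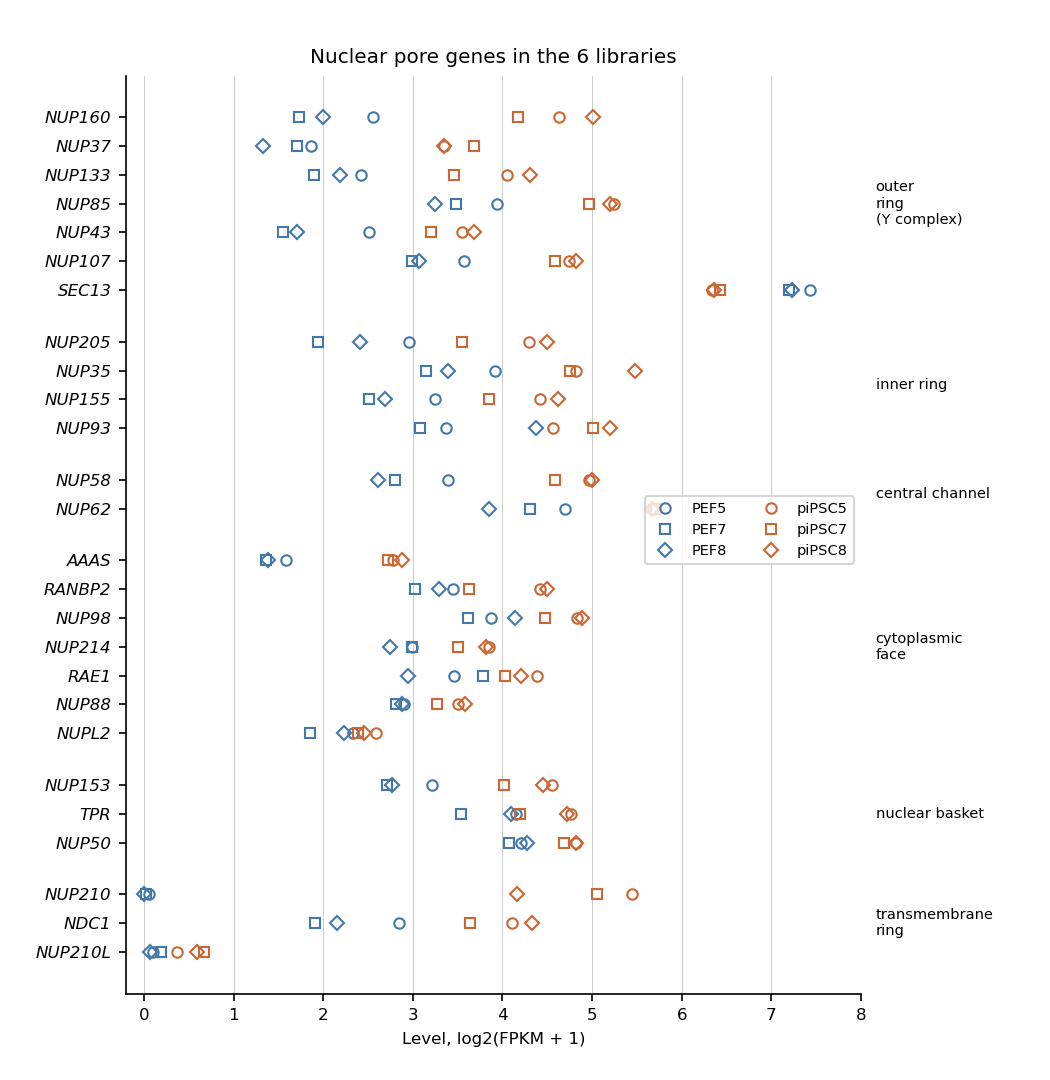
Levels of the 26 nuclear pore genes, as log2(FPKM + 1), in the 3 PEF libraries (blue) and the 3 piPSC libraries (orange), grouped by position in the pore; circles are line 5, squares line 7 and diamonds line 8. The piPSC values lie to the right of the PEF values in 25 genes and to the left in SEC13.

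Seen gene by gene, the groups did not overlap. In 24 of the 25 tested members, the lowest piPSC library was above the highest PEF library, and in SEC13 the highest piPSC library was below the lowest PEF library. Of all genes tested, 37.3% did not overlap with higher values in the piPSCs, and 26.8% with lower values. The plot of levels by library shows these gaps, which were narrow in NUPL2 and TPR and wide in NUP160 and NUP210. The fragments behind these values ran from 75 to 5102 per library in the 24 tested members other than NUP210.

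The outer ring is formed by copies of the Y complex, a branched assembly that also takes part in placing new pores in the envelope and in kinetochore function. Of its 7 members, 6 rose at least 2-fold and SEC13 fell. NUP160 (ENSSSCG00000013223, chromosome 2 of Sscrofa11.1 from 14840688 to 14923402), a subunit of the short arms of the Y, had FPKM values of 4.87, 2.31 and 3.00 in PEF5, PEF7 and PEF8 and 23.8, 17.1 and 31.2 in piPSC5, piPSC7 and piPSC8. All piPSC libraries lay far above the highest PEF library, and the log2 fold change was 2.51 (SE 0.30, adjusted p = 0.00113). This was the largest increase of the outer ring and, after NUP210, of all members.

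NUP37 (ENSSSCG00000000860, chromosome 5 from 82091456 to 82145089), a small propeller-shaped partner of NUP160, had FPKM values of 2.65, 2.27 and 1.52 in the PEFs and 9.20, 11.8 and 9.18 in the piPSCs, a log2 fold change of 1.82 (SE 0.22, adjusted p = 0.00114). NUP133, at the stalk of the Y, had 4.36, 2.71 and 3.56 against 15.6, 10.0 and 18.8, a log2 fold change of 1.77 (SE 0.27, adjusted p = 0.00272). NUP107, its partner in the stalk, had 10.9, 6.93 and 7.36 against 25.8, 23.0 and 27.3, a log2 fold change of 1.51 (SE 0.20, adjusted p = 0.00162). In these genes PEF5 was the highest PEF library and was still far below the lowest piPSC library. NUP85 rose from 11.0 ± 3.04 to 34.3 ± 3.63 FPKM (SD, n = 3), with a log2 fold change of 1.58 (SE 0.22, adjusted p = 0.00176). NUP43 rose from 2.97 ± 1.51 to 10.3 ± 1.89 FPKM (SD, n = 3), with a log2 fold change of 1.56 (SE 0.30, adjusted p = 0.00622). The increases of the 6 genes ran from 1.51 in NUP107 to 2.51 in NUP160 on the log2 scale.

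SEC13 (ENSSSCG00000011572, chromosome 13 from 66483602 to 66524305) was the exception. It encodes a propeller protein that sits in the Y complex and, in a separate pool, in the outer cage of the COPII coat that carries cargo out of the endoplasmic reticulum, as well as in the GATOR2 complex of amino acid signalling. It was the most abundant member in both groups, with FPKM values of 172, 146 and 149 in PEF5, PEF7 and PEF8 and 80.1, 85.0 and 81.1 in piPSC5, piPSC7 and piPSC8. The piPSC libraries were close to each other and all below the PEFs, and the log2 fold change was -0.91 (SE 0.13, adjusted p = 0.00227). The fall passed 2-fold under both rescalings, with log2 fold changes of -1.18 and -1.24. Set against the median FPKM of the other 6 members of the ring, SEC13 stood at 35.9, 58.1 and 45.4 times that level in PEF5, PEF7 and PEF8 and at 4.07, 5.89 and 3.52 times in piPSC5, piPSC7 and piPSC8. The gap between SEC13 and its ring partners was thus smaller in every piPSC library than in any PEF library.

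The bases just before the RefSeq start of the gene that fell and of a ring gene that rose are shown so that their sequences can be compared. NUP37 was taken because its start in the table lies 17 bases from the RefSeq start, which is nearer than for NUP160 (632 bases), and for SEC13 the distance is 106 bases. Both stretches are the 250 bases before the gene start of the RefSeq annotation of Sscrofa11.1, at chr5:82091189-82091438 on the plus strand and chr13:66524412-66524661 on the minus strand. Capitals mark exact matches to 10 short motifs that are listed with their shares further on.
NUP37: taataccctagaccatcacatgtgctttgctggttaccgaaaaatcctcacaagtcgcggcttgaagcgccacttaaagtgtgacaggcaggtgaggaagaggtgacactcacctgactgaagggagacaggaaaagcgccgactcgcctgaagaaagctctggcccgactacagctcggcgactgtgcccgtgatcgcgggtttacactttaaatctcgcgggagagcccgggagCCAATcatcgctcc
SEC13: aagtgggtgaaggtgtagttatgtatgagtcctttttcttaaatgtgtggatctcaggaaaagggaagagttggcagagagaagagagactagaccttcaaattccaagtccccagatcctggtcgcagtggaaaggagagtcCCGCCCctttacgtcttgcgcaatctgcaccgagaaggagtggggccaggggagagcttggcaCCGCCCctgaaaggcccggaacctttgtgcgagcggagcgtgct
In this stretch NUP37 held a CCAAT box close to the start, while its GC box and ETS motif reach past the start and are not shown, and SEC13 held 2 GC boxes. The 300-base windows had a GC content of 59.0% in NUP37 and 58.0% in SEC13, with 24 and 15 CpG dinucleotides, so the base composition was alike and the number of CpG was higher in NUP37.

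The inner ring surrounds the channel and holds the pore membrane open, with NUP93 as the hub to which the large solenoid proteins bind. All 4 members rose at least 2-fold, by between 1.32 and 1.68 on the log2 scale. NUP205, a large solenoid, had FPKM values of 6.76, 2.84 and 4.33 in the PEFs and 18.6, 10.7 and 21.6 in the piPSCs, a log2 fold change of 1.68 (SE 0.35, adjusted p = 0.00823). NUP35, the most abundant inner ring member in the piPSCs and a membrane-binding nucleoporin, had 14.1, 7.87 and 9.46 against 27.2, 26.0 and 43.8, a log2 fold change of 1.53 (SE 0.28, adjusted p = 0.0052). Both groups were well separated in these 2 genes, with PEF5 the highest and PEF7 the lowest of the PEFs. NUP155 rose by 1.48 (SE 0.29, adjusted p = 0.00617), from 6.21 ± 2.01 to 19.1 ± 5.19 FPKM (SD, n = 3). NUP93 (chromosome 6 from 18707989 to 18827890) behaved less evenly, with 9.31, 7.43 and 19.8 in the PEFs and 22.7, 31.3 and 35.8 in the piPSCs. PEF8 came close to piPSC5 here, and the log2 fold change of 1.32 (SE 0.36, adjusted p = 0.0223) lost its call without PEF5, PEF7, piPSC7 or piPSC8, with the highest adjusted p of 0.0726 without PEF5.

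In the central channel, both members rose at least 2-fold. NUP62 (ENSSSCG00000040333, chromosome 6 from 54921627 to 54923227), a repeat nucleoporin at the middle of the channel, had FPKM values of 24.9, 18.9 and 13.4 in the PEFs and 50.1, 51.3 and 50.0 in the piPSCs. Its piPSC values were the most even of all members, and the log2 fold change was 1.40 (SE 0.23, adjusted p = 0.00314). NUP58, its partner in the channel, had 9.53, 5.95 and 5.09 against 30.4, 23.1 and 31.1, a log2 fold change of 1.92 (SE 0.25, adjusted p = 0.00149). NUP62 stood behind SEC13 as the most abundant of the other members in both groups.

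The cytoplasmic face holds the filaments and the export platform at which messenger RNA is released. Its changes were smaller: of 7 members, 6 rose but only AAAS by at least 2-fold, and the median log2 fold change was 0.81. AAAS, which encodes the nucleoporin ALADIN, mutated in triple A syndrome, had FPKM values of 2.00, 1.57 and 1.60 in the PEFs and 5.85, 5.58 and 6.37 in the piPSCs. Each group was tight, and the log2 fold change was 1.35 (SE 0.18, adjusted p = 0.00175). NUP98, the most abundant member of this face and a repeat nucleoporin also known from leukaemia fusions, had 13.7, 11.2 and 16.6 against 27.4, 21.2 and 28.7, a log2 fold change of 0.85 (SE 0.20, adjusted p = 0.0131). RANBP2, the large filament protein that binds Ran, had 9.92, 7.14 and 8.83 against 20.3, 11.3 and 21.6, a log2 fold change of 0.92 (SE 0.27, adjusted p = 0.0295). In RANBP2 and NUP98, piPSC7 was the lowest piPSC library and lay nearest to the PEFs.

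NUP214 and NUP88, which form the export platform, rose by 0.81 (SE 0.18, adjusted p = 0.00996) and 0.59 (SE 0.17, adjusted p = 0.0250) on the log2 scale. NUP88 had 6.47, 6.01 and 6.37 FPKM in the PEFs, the tightest PEF values of the 26 genes relative to their mean, and 10.3, 8.63 and 11.0 in the piPSCs. RAE1, an mRNA export factor that binds NUP98, had 9.98, 12.8 and 6.68 against 20.0, 15.3 and 17.5, a log2 fold change of 0.81 (SE 0.25, adjusted p = 0.0322). Its adjusted p was 0.0547 with the line as a block. NUPL2, a docking site for the export factor GLE1, had 4.05, 2.62 and 3.68 against 5.00, 4.24 and 4.47, with a log2 fold change of 0.33 (SE 0.21, adjusted p = 0.213). Leaving out single libraries ended the calls of RANBP2 and NUP88 (in both, each library but piPSC7) and RAE1 (PEF5, PEF8, piPSC5 or piPSC8), with log2 fold changes of 0.76 to 1.20, 0.52 to 0.68 and 0.59 to 1.01.

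The nuclear basket reaches into the nucleus and serves in import, mRNA quality control and the keeping of open chromatin at the pore. Its 3 members split. NUP153, which anchors the basket, had FPKM values of 8.29, 5.54 and 5.83 in the PEFs and 22.4, 15.2 and 20.9 in the piPSCs, a log2 fold change of 1.44 (SE 0.23, adjusted p = 0.00287). NUP50, a mobile partner of the importins and the most abundant of the 3, had 17.4, 15.8 and 18.3 against 27.2, 24.7 and 27.2, a log2 fold change of 0.59 (SE 0.14, adjusted p = 0.0133), which lost its call without piPSC5, as did that of NUP98. TPR, whose coiled coils form the basket filaments, had 16.7, 10.6 and 16.0 against 26.1, 17.4 and 25.3, with a log2 fold change of 0.64 (SE 0.24, adjusted p = 0.0662). In TPR both groups held a low library from line 7, and the change passed with the line as a block (adjusted p = 0.0255).

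The transmembrane nucleoporins anchor the pore in the envelope. NUP210 (ENSSSCG00000011610, chromosome 13 from 70917438 to 71009775), also known as gp210, is a single-pass glycoprotein whose level is known to differ between cell types. It had 7, 3 and 0 fragments in PEF5, PEF7 and PEF8, which are FPKM values of 0.0393, 0.0180 and 0, and 6404, 3813 and 1856 fragments in piPSC5, piPSC7 and piPSC8, which are FPKM values of 42.6, 32.1 and 16.9. It was thus nearly silent in the PEFs and well expressed in every piPSC library, lowest in piPSC8. The log2 fold change was 4.86 (SE 0.34), a value that the added 1 FPKM holds down. It is given as a description, as the gene passed the filter on low values only through the piPSCs. From the summed fragments, 10 of 49696558 in the PEFs and 12073 of 37952844 in the piPSCs, the fold was 1581 (95% exact binomial interval 859 to 3297, counting error only). Among the 26 members it had the lowest level in each PEF library, and its rank was 3 in piPSC5 and piPSC7 and 19 in piPSC8.

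NDC1, a multi-pass membrane protein needed for pore insertion, had FPKM values of 6.20, 2.75 and 3.44 in the PEFs and 16.2, 11.4 and 19.0 in the piPSCs, a log2 fold change of 1.72 (SE 0.31, adjusted p = 0.00457). NUP210 thus went from 0.00635, 0.00655 and 0 times the level of NDC1 in the PEFs to 2.63, 2.81 and 0.888 times in piPSC5, piPSC7 and piPSC8. NUP210L, a relative of NUP210 known from the testis, was below the filter and was not tested. Its FPKM values were 0.0690, 0.137 and 0.0465 in the PEFs and 0.292, 0.592 and 0.511 in the piPSCs, from 4 to 40 fragments per library. It did not reach 1 FPKM in any library.

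The 250 bases before the RefSeq start of NUP210, the member with the largest change, lie at chr13:70917214-70917463 of Sscrofa11.1 on the plus strand, and the gene starts in the table and in RefSeq are 26 bases apart. Capitals mark exact motif matches, as above.
NUP210: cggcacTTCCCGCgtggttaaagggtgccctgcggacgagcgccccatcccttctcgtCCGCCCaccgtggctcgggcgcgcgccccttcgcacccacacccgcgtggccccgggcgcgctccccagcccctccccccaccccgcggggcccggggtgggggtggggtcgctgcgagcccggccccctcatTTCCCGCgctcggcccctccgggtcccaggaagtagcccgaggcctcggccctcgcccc
The 300-base window had a GC content of 79.3%, the highest of the members, with 41 CpG dinucleotides. It held 3 GC boxes and 2 E2F motifs and no TATA box, E-box or octamer of the searched letters.

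**Figure D2:**
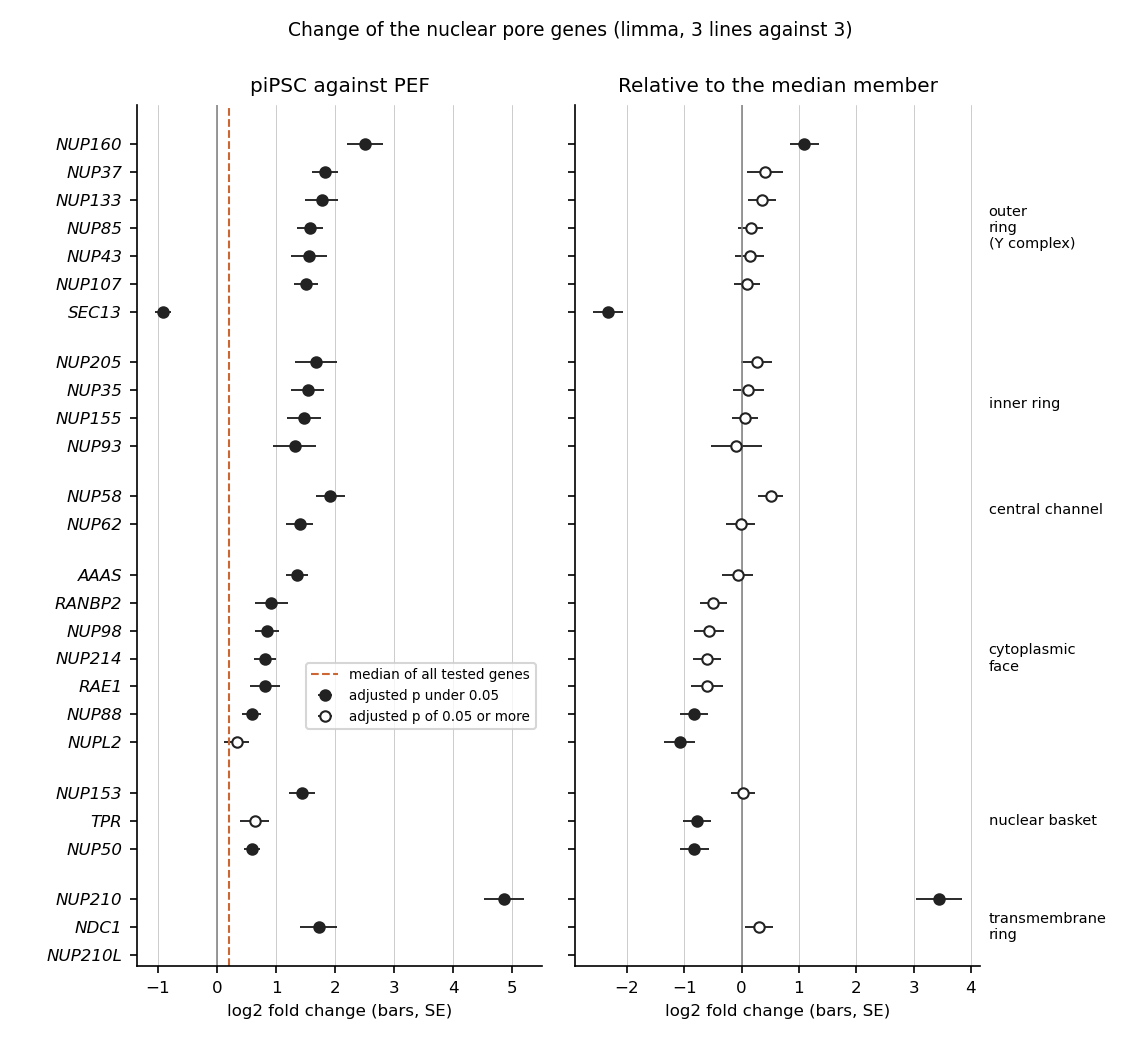
Log2 fold change from PEF to piPSC (points) with SE (bars) for each nuclear pore gene, on the FPKM scale (left) and after subtracting the median of the tested members in each library (right); filled points have an adjusted p under 0.05 and the dashed line is the median of all genes tested, 0.20. NUP210 and NUP160 lie to the right of the other members on both scales and SEC13 to the left, and NUP210L was not tested.

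To see which subunits moved apart from the rest, the median log2(FPKM + 1) of the tested members was subtracted from every gene in each library before the same fit. On this scale a value of 0 means a change equal to that of the members' median level, called the median member here. NUP160 rose more than the median member (1.10, SE 0.25, adjusted p = 0.0061). NUP210 had a value of 3.44 (SE 0.40), given as a description, since it was tested at all only because of its piPSC level. SEC13 (-2.33, SE 0.26, adjusted p = 0.000273), NUPL2 (-1.08, SE 0.27, adjusted p = 0.00923), NUP88 (-0.83, SE 0.25, adjusted p = 0.0190), NUP50 (-0.82, SE 0.25, adjusted p = 0.0202) and TPR (-0.78, SE 0.24, adjusted p = 0.0224) were lower than the median member on this scale. Of these 5, only SEC13 fell on the FPKM scale itself, NUP88 and NUP50 rose there, and NUPL2 and TPR did not pass there. Of all genes tested, 3.00% were higher and 61.6% lower than the median member. Among the 24 tested members other than NUP210, only NUP160 was higher and 5 were lower. The remaining 18 members could not be told apart from the median member. NUP160, SEC13 and NUPL2 passed under all 15 alternatives, whereas the count of members below the median fell to 2 without PEF8, piPSC5 or piPSC8 and to 3 without PEF7.

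The median change differed between positions in the pore, but genes of the same position spread. Fitted log2 fold changes ran from -0.91 to 2.51 in the outer ring and from 0.59 to 1.44 in the basket. SEH1L, an outer ring gene outside the 26 that is given further on, rose by 0.87. The median log2 fold change was 1.58 in the outer ring, 1.51 in the inner ring and 1.66 in the central channel, against 0.81 on the cytoplasmic face and 0.64 in the basket. Over the 12 tested ring and channel members other than SEC13, the median FPKM was 8.90, 5.32 and 5.28 in PEF5, PEF7 and PEF8 and 23.2, 20.0 and 29.2 in piPSC5, piPSC7 and piPSC8. Over the 10 members of the cytoplasmic face and basket it was 9.10, 7.04 and 6.52 in the PEFs and 20.1, 13.2 and 19.2 in the piPSCs. The ratio of the first median to the second was between 0.756 and 0.977 in the PEFs and between 1.15 and 1.52 in the piPSCs, without overlap. These ratios leave out SEC13, which fell, and are given as a description, with no test. AAAS (1.35) and NUP153 (1.44) rose more than NUP93 (1.32), and NUP153 also rose more than NUP62 (1.40) of the channel. Both rose less than the remaining rising ring and channel members.

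Each piPSC line was also set against its own PEF line, with 1 library against 1 and so with no test. In line 5, 14 of the 25 tested members were at least 2-fold higher on the (FPKM + 1) scale, against 21.9% of all genes. In line 7 these were 16, against 24.9%, and in line 8 they were 18, against 23.8%. All 24 tested members other than SEC13 were higher in each of the 3 lines, and 13 were at least 2-fold higher in each. The share of all genes that rose in all 3 lines at once was not counted, so these counts are a description only. The median log2 ratio of the members was 1.17 in line 5, 1.40 in line 7 and 1.76 in line 8, while that of all genes was 0.21, 0.24 and 0.08.

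**Figure D3:**
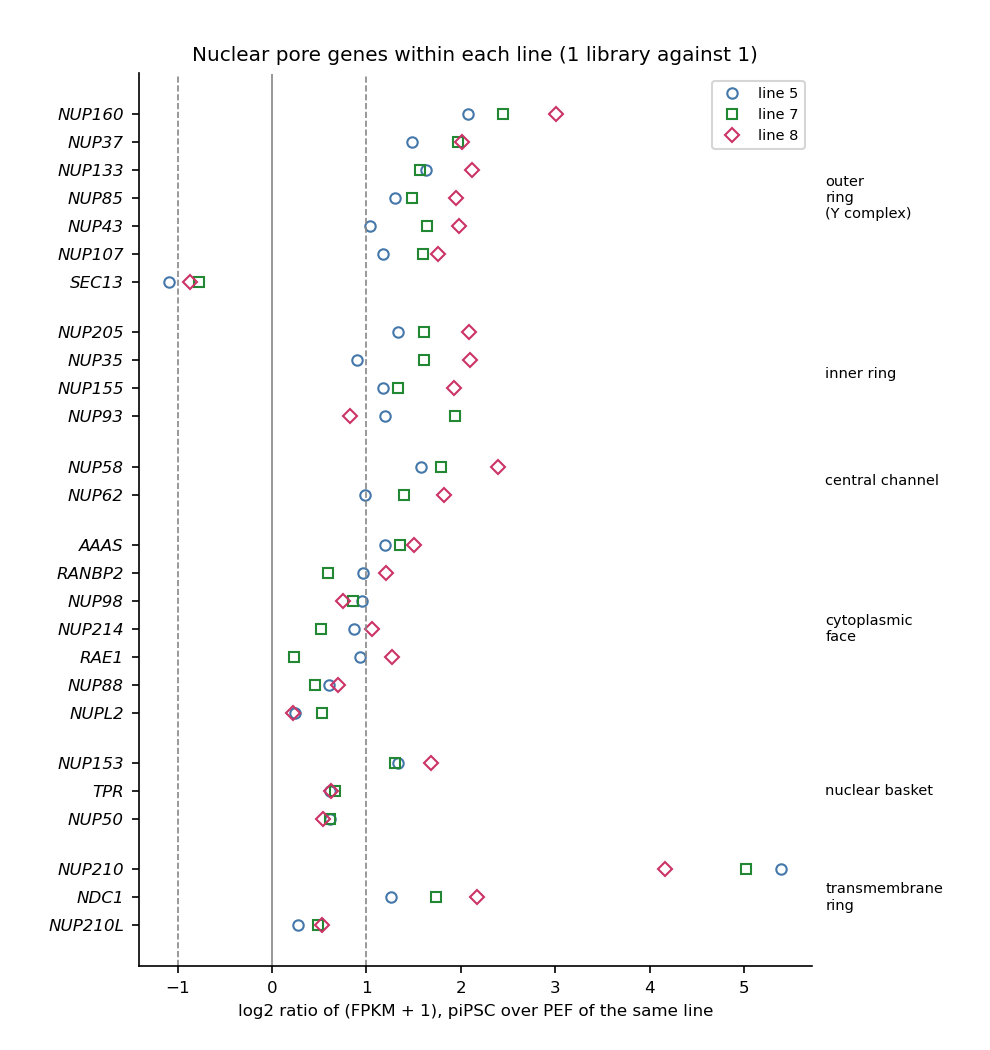
Log2 ratio of (FPKM + 1) of each piPSC library to the PEF library of the same line for the 26 nuclear pore genes; circles are line 5, squares line 7, diamonds line 8, and dashed lines mark 2-fold. Line 5 lies to the left in most ring and channel genes, and NUP93, NUP98, NUP50, NUPL2 and NUP210 have their lowest ratio in line 8.

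The lower ratios of line 5 came with a higher starting level. The median log2(FPKM + 1) of the tested members was 3.25, 2.81 and 2.77 in PEF5, PEF7 and PEF8, and 4.55, 4.02 and 4.50 in piPSC5, piPSC7 and piPSC8. PEF5 was also the PEF library with the highest proliferation genes, as given above, and the proliferation medians of the piPSCs were 5.46, 5.56 and 5.63. In PEF5, MCM2 had an FPKM of 18.4, against 1.51 and 4.18 in PEF7 and PEF8 and 56.5 to 84.3 in the piPSCs. The part of proliferation in the levels of the pore genes was not tested.

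Further pore genes were listed by Ensembl identifier alone, were named through a table of gene symbols and stand outside the 26. SEH1L (ENSSSCG00000003673), the partner of NUP85 in the Y complex, had FPKM values of 8.33, 8.22 and 6.67 in the PEFs and 16.5, 11.8 and 17.0 in the piPSCs, a log2 fold change of 0.87 (SE 0.20, adjusted p = 0.0117). NUP188 (ENSSSCG00000005667), the inner ring relative of NUP205, had 15.4, 13.0 and 13.7 against 41.9, 36.6 and 63.2, a log2 fold change of 1.65 (SE 0.23, adjusted p = 0.00177). NUP54 (ENSSSCG00000008979), the partner of NUP62 and NUP58, had 4.13, 2.40 and 2.81 against 12.5, 8.91 and 18.1, a log2 fold change of 1.75 (SE 0.30, adjusted p = 0.0037). These 3 rose by the same test, although SEH1L did so by less than the 6 rising members of its ring and did not pass with equal FPKM sums (adjusted p = 0.0604). All 3 subunits of the channel and all 5 of the inner ring that were measured were higher in the piPSCs.

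Of 15 tested genes that work at the pore but stand outside the rule, 8 rose and 0 fell by limma. Among all genes tested, 30.3% rose and 21.5% fell. The median log2 fold change of the 15 was 0.68. The largest increases were in NUP62CL (ENSSSCG00000012557), an X-linked relative of NUP62, at 3.57 (SE 0.38, adjusted p = 0.000803), in the membrane protein gene TMEM33 (adjusted p = 0.00189), with 12.3, 10.5 and 7.82 against 33.8, 25.5 and 32.2 FPKM, and in AHCTF1, which encodes the chromatin-binding ELYS that seeds new pores, at 1.44 (SE 0.22, adjusted p = 0.00272). NUP62CL had FPKM values of 1.48, 0.444 and 0.356 in the PEFs and 25.6, 23.7 and 11.3 in the piPSCs. Like NUP210, it was low in every PEF library and lowest among the piPSCs in piPSC8.

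Most genes of the transport machinery that passes through the pore were also higher in the piPSCs. Importins and exportins carry cargo, and the small GTPase RAN sets the direction of transport. Of 49 tested genes of 4 lists (importins, exportins, Ran cycle and mRNA export), 35 rose and 0 fell by limma, against 30.3% and 21.5% of all genes tested, with a median log2 fold change of 1.01. The other 14 did not pass, and their fitted changes included -0.48 in THOC6, -0.15 in KPNA4 and -0.11 in TNPO3, named after their values were seen. At an unadjusted p under 0.05 none of them was lower either, and limma's voom on fragments gave 0 as well. Without PEF5, 33 of the 49 rose, beside 3170 of all 12428 genes tested.

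Of 18 importin genes tested, 13 rose, led by IPO11 at 2.00 (SE 0.32, adjusted p = 0.00315), KPNA5 at 1.92 (SE 0.27, adjusted p = 0.00201) and KPNA2 at 1.86 (SE 0.31, adjusted p = 0.00367). KPNA2, an importin alpha known as abundant in stem and dividing cells, had FPKM values of 56.5, 23.1 and 30.7 in the PEFs and 123, 138 and 122 in the piPSCs. Of 11 genes in the exportin list, 8 rose, led by XPO5, the carrier of precursor microRNAs, at 1.73 (SE 0.20, adjusted p = 0.000924), CSE1L at 1.54 (SE 0.31, adjusted p = 0.00746) and XPO1, the main protein exporter, at 1.39 (SE 0.22, adjusted p = 0.00307). This list also holds NXF1, NXT1 and NXT2, which stand among the pore genes outside the rule as well. NUTF2 is in both the importin and the Ran cycle list. In the Ran cycle 7 of 9 genes rose, led by RANGAP1 at 2.28 (SE 0.31, adjusted p = 0.00166), RCC1 at 1.93 (SE 0.26, adjusted p = 0.00174) and RANBP1 at 1.82 (SE 0.18, adjusted p = 0.000631). RAN itself, singled out after its values were seen, had 108, 81.9 and 71.7 FPKM against 286, 354 and 255. In mRNA export 8 of 12 genes rose, led by ALYREF at 1.57 (SE 0.16, adjusted p = 0.000644), THOC2 at 1.51 (SE 0.23, adjusted p = 0.00246) and THOC3 at 1.38 (SE 0.20, adjusted p = 0.00199).

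**Figure D4:**
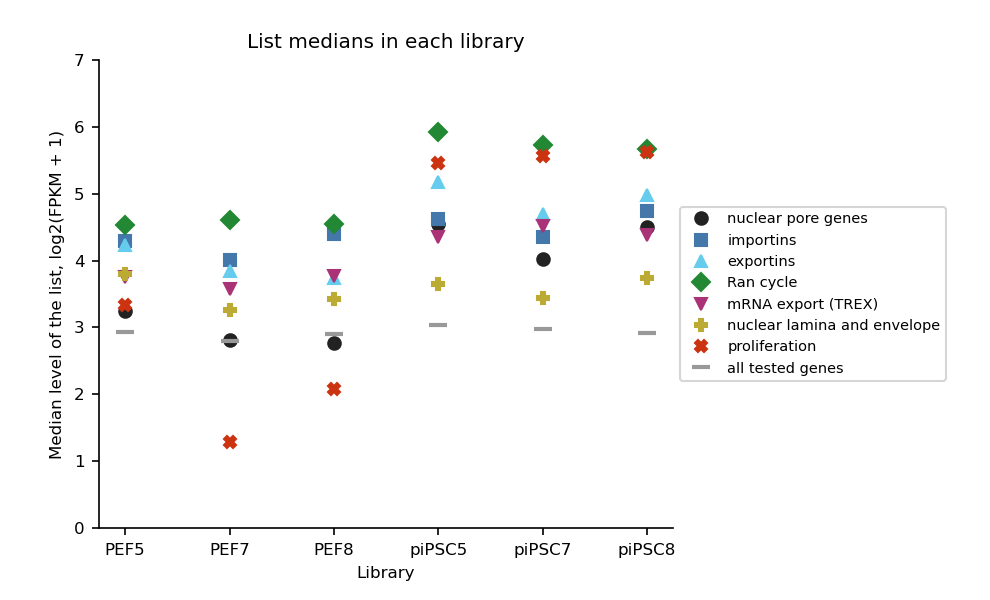
Median log2(FPKM + 1) of the tested genes of each list (symbols) in the 6 libraries. The nuclear pore genes lie at 2.77 to 3.25 in the PEFs and 4.02 to 4.55 in the piPSCs, the proliferation list spreads from 1.29 to 3.34 among the PEFs, and all genes tested stay between 2.80 and 3.04.

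The nuclear lamina, the filament mesh to which pores are tied, and the proteins of the inner envelope did not move as a block. Of 18 tested genes 7 rose and 6 fell, against 30.3% and 21.5% of all genes tested. Their median was -0.09 on the log2 scale. LMNB1, a B-type lamin, had FPKM values of 23.2, 2.70 and 3.83 in the PEFs and 91.2, 68.9 and 98.0 in the piPSCs, a log2 fold change of 3.51 (SE 0.68, adjusted p = 0.00618). LMNA, the A-type lamin of differentiated cells, had 204, 207 and 346 against 60.2, 82.6 and 62.8, a log2 fold change of -1.83 (SE 0.25, adjusted p = 0.00179). The A-type and B-type lamins thus moved in opposite directions in every line, as the plot of single genes shows. LMNB2 (2.60, SE 0.30, adjusted p = 0.00101) and TMPO (2.03, SE 0.29, adjusted p = 0.00207) also rose, while TOR1AIP2 (-1.59, SE 0.19, adjusted p = 0.00111) and the outer membrane linker SYNE3 (-1.46, SE 0.33, adjusted p = 0.0108) fell. The summed FPKM of LMNB1 and LMNB2 was 0.148, 0.0294 and 0.0198 times that of LMNA in PEF5, PEF7 and PEF8 and 2.05, 1.14 and 2.12 times in piPSC5, piPSC7 and piPSC8.

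**Figure D5:**
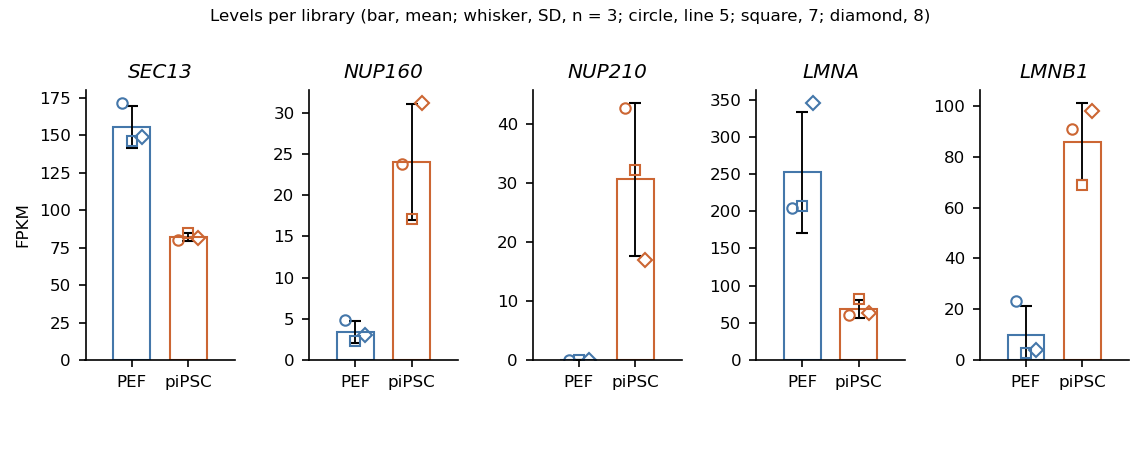
FPKM of SEC13, NUP160, NUP210, LMNA and LMNB1 in each library, with the mean (bar) and SD (whisker, n = 3) of each group; circles are line 5, squares line 7 and diamonds line 8. SEC13 and LMNA are lower and NUP160, NUP210 and LMNB1 higher in the piPSCs, with no overlap between the groups, and the PEF whisker of LMNB1 is clipped at 0.

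The promoters of the members were searched for short motifs on both strands, as a description. RefSeq windows from 250 bases before to 50 bases after the gene start matched 24 of the 26 members. In 14 of these the start lay within 150 bases of the start in the table, while in NUP62, NUP93 and NUP205 it lay 22478, 3880 and 44637 bases away. The NRF1 site (GCGCATGC) was present in 6 of 24 windows (25.0%), against 3.06% of 19556 promoters of the same length. Among the 14 windows with near starts it was present in 4 (28.6%). The factor NRF1 is known for binding CpG-rich promoters of housekeeping genes, and the members' median GC content of 58.2% was close to the 58.7% of all promoters, with a median of 19.5 CpG against 16.

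The stretches around the NRF1 sites are shown with the matching letters in capitals and up to 11 bases on each side, in the direction of the gene. They lie at chr5:32989684-32989710 (NUP107, plus strand), chr1:16249522-16249542 (NUP43, plus), chr12:6103965-6103994 (NUP85, minus), chr6:54945811-54945840 (NUP62, minus), chr17:57751859-57751888 (RAE1, plus) and chr5:4219410-4219439 (NUP50, minus) of Sscrofa11.1.
NUP107: aaaaagaaattGCGCATGCGCcaaagg
NUP43: ccccgcggcacGCATGCGCct
NUP85: ggtctcagcccGCGCATGCGCggccgcagc
NUP62: atcagctgagtGCGCATGCtccgcagcgcg
RAE1: gcctcgtgggtGCATGCGCagcggccccca
NUP50: gcatggggtgtGCGCATGCGCgcgcacatg
In NUP107, NUP85 and NUP50 matches on both strands overlapped in a run of 10 bases. The 6 genes included 3 of the Y complex, and they rose by between 0.59 (NUP50) and 1.58 (NUP85) on the log2 scale. Whether members with the site changed otherwise than members without it was not tested.

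The other motifs were found at shares nearer to those of all promoters. The CCAAT box (CCAAT) was present in 12 of 24 windows (50.0%), against 35.4%, and the GC box (GGGCGG) in 13 (54.2%), against 50.6%. The ETS motif (CCGGAAG) was present in 5 windows (20.8%), against 11.0%, and the E2F motif (GCGGGAA) in 5 (20.8%), against 7.03%. The MYC E-box (CACGTG), the octamer (ATTTGCAT) and the CRE (TGACGTCA) were present in 1 window each (4.17%), against 7.92%, 1.39% and 2.26%. The TATA box (TATAAA) was present in 2 (8.33%), against 10.9%, and the YY1 motif (AAGATGGCG) in 0, against 1.47%. None of these shares was tested, and a match is a description of letters in the window, not of binding.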

How the data were processed

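RNA of 3 PEF and 3 piPSC lines was measured. Poly-A libraries were read over 150 bp from both ends, and the deposited values are FPKM for each gene. Per the labels, the submitters' processing notes name HISAT2 2.1.0, Bowtie2 2.2.3, HTSeq 0.6.0 and Sscrofa11.1, and which program gave the values, how reads shared between genes were counted and whether strand was used are not given in the sources used here. Mouse feeder RNA, if present, was not separated from pig RNA.

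Fragment counts could be recovered from the FPKM steps, and came out whole in 18007 of 18007 genes (tolerance 0.0005 fragments). The gene length was searched for in the same step, so whole counts are no check for genes seen in few libraries. Genes at 0 in every library were set to 0. The libraries held 15146576 to 17836510 (PEF) and 11010629 to 15050204 (piPSC) fragments. Of 3375 genes listed by identifier only, 902 were named from a symbol table.

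The groups were compared by limma 3.58.1 (R 4.3.3) on log2(FPKM + 1), two-sided, using moderated variances with a mean trend but not the robust option. Benjamini-Hochberg adjustment ran over the 12428 genes whose mean FPKM reached 0.5. The fit was tested on simulated data. Fold changes on this scale understate changes of low genes. An exact permutation test of 3 against 3 cannot give a p under 0.1, so none was used. Lines were not paired in this fit. The study's general statistics name an unpaired test, while it set the RNA profiles of each piPSC line beside those of its own PEF line, so both forms are given. The same number marks a PEF line and the piPSC line made from it, so numbers pair the samples. Correlations of same-line deviations were 0.0921, 0.0946 and 0.0800, and those of other pairs -0.121 to 0.0553. A replicate block for the line was 1 alternative, beside a pseudocount of 0.1, no filter, a mean FPKM of at least 1, rescaling to the median ratio or to FPKM sums of 1000000, quantile normalization, no trend, limma's voom on the fragments, and leaving out each library. Summaries were made in Python 3.11.15 with scipy 1.17.1.

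All members were named, and of each other list up to 3 largest increases and decreases at an adjusted p under 0.05. The members and lists were chosen with earlier results of these data known. Promoter windows come from the RefSeq annotation of Sscrofa11.1, on which the table's positions also lie. Protein sequences, chromatin accessibility and DNA methylation were not analysed here.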

Additional observations from a re-analysis of the deposited data

How the results depend on the processing

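The rises of the members held under most choices. The count of members that rose was between 15 (equal FPKM sums) and 22, that of members at least 2-fold higher was 15 or 16, and SEC13 was the 1 member that fell under all 15 alternatives. Of all 12428 genes tested, 2627 rose with equal sums, against 3763 without rescaling. The median log2 fold change of the members lay between 1.20 and 1.61, and no member turned direction. With either rescaling, SEC13 passed 2-fold, so 1 member was called lower in place of 0. The members below the median member numbered 9 with voom on fragments in place of 5, and between 2 and 6 when single libraries were left out. In line 5, 8 members were at least 2-fold higher after rescaling to the median ratio, and 23 were at least 1.5-fold higher, in place of 14 at 2-fold. With the line as a replicate block, 22 members rose and 1 fell, RAE1 lost its call and TPR gained it, and no other member's call changed. In that fit 3483 of all 12428 genes were higher and 2450 lower. For the median ratio and equal sums the direction of the shift follows from the rescaling itself. The causes of the other changes were not tested. Calls were lost under at least 1 alternative by NUP93, NUP98, NUP214, NUP88, NUP50, RANBP2 and RAE1, and the design has 3 lines a group with 1 library per line.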

Other observations

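SEC13 was singled out after its fall was seen, and the genes of the COPII coat, in which it also works, are given here as values with no test of the group. SAR1A, the GTPase that starts coat assembly, had FPKM values of 106, 112 and 103 in the PEFs and 34.7, 40.1 and 27.0 in the piPSCs. SEC24D, a cargo adaptor, had 48.1, 37.6 and 43.6 against 21.1, 12.6 and 19.3. SEC31A, the partner of SEC13 in the cage, had 87.4, 74.4 and 68.7 against 56.7, 38.1 and 56.0. These 3 were lower in every piPSC library than in any PEF library, as was SEC13. SEC23B had 27.2, 19.2 and 20.5 against 26.2, 23.0 and 30.8, and SEC24C had 14.9, 9.98 and 16.2 against 17.0, 12.7 and 16.9, so their groups overlapped. The groups also overlapped in SEC24A and SEC31B. SAR1B was lower in each piPSC library than in any PEF library, with 12.7, 13.3 and 13.6 against 12.6, 9.70 and 11.2, and SEC24B was higher, with 12.9, 9.78 and 9.84 against 14.1, 14.4 and 14.0, but neither passed limma's test (adjusted p = 0.263 and 0.107). Of the GATOR2 partners, WDR59 had 5.05, 3.11 and 4.41 against 8.46, 7.99 and 10.2, and WDR24 had 2.90, 3.35 and 3.24 against 5.24, 4.88 and 5.17, both higher in the piPSCs. MIOS had 3.20, 3.34 and 2.43 against 5.75, 3.91 and 6.28 and did not pass (limma, adjusted p = 0.0521).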
